A study of Mus musculus with 2 samples.

Results

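The chemokine gene Cxcl12 and the genes of its receptors, Cxcr4 and Ackr3, were examined in total RNA sequencing libraries of fetal mouse heart. The genes were fixed by name: 3 of the 42462 annotated genes, with all of their 8 transcripts out of 102597. The libraries come from 2 pools of hearts dissected at embryonic day 16.5 from B6NCrl embryos of both sexes, called replicates 1 and 2 here. No genotype, treatment or second condition is given, so there is a single group and no contrast to test. Replicate 2 came from 41 embryos, and the number behind replicate 1 is not stated. The labels give separate biosamples but a single donor identifier, so the spread between the libraries may be partly technical. With 2 libraries, the smallest p that an exact two-sided sign-flip test allows is 0.5, and values are therefore given without tests.

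CXCL12 is a secreted chemokine that binds heparan sulfate on cell surfaces and in the matrix. CXCR4 is its classical receptor, which signals through inhibitory G proteins and guides migrating cells. ACKR3, formerly CXCR7, is an atypical receptor that recruits arrestins, does not couple to G proteins in the classical way, and takes up CXCL12 from the surroundings. In the mouse, loss of Cxcl12 or Cxcr4 causes ventricular septal defects and abnormal coronary vessels, and loss of Ackr3 causes thickened semilunar valves.

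The libraries were of similar depth, with 37160624 estimated counts in replicate 1 and 40360242 in replicate 2. All 7 cardiomyocyte markers reached 1 TPM (a relative abundance corrected for transcript length) in both libraries, at a median of 2910 TPM. The 1 TPM level was reached in both libraries by 59.1% of all nuclear protein-coding genes. Markers of thymocytes, lung epithelium and fast skeletal muscle were present to different degrees, and the source of this RNA was not tested. The 10 thymocyte markers, among them Cd3e, Lck and Rag1, summed to 124 TPM in replicate 1 and 329.6 in replicate 2. The 5 lung epithelial markers, led by the surfactant gene Sftpc, summed to 914.7 and 100.7 TPM. The 6 fast skeletal muscle markers summed to 20.3 and 47.15 TPM.

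The ligand has splice forms that share their first coding exons and differ in the C terminus, so the coding ends of its transcripts are shown first. Each line runs from the first coding base of exon 3 to the stop codon, read from the GENCODE M21 transcripts on GRCm38, plus strand of chromosome 6. The exon 3 stretch begins at position 117173492. Lower case marks the 88 bases that the forms share, and capitals mark the bases after them, stop codon included.
Cxcl12-202: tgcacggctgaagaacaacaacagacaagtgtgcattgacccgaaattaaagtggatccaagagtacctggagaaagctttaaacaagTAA
Cxcl12-203: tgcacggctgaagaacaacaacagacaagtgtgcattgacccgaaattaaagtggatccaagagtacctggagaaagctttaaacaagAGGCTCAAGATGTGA
Cxcl12-201: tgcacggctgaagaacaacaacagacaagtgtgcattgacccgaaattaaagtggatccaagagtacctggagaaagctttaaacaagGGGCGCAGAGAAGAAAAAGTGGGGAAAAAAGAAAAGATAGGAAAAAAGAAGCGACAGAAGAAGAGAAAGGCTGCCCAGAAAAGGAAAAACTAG

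Cxcl12-202, with 89 codons, is the alpha form, in which the stop codon follows the shared stretch directly. Cxcl12-203, with 93 codons, is the beta form, and its 15 bases after the shared stretch end in the stop codon. Cxcl12-201, with 119 codons, is the gamma form, whose 93 further bases encode a basic tail that is known to bind heparan sulfate tightly. Cxcl12-204 is annotated as a retained-intron transcript without a coding region.

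The annotated coding starts of Cxcr4 differ too, and bear on which N terminus the receptor transcripts carry. Both lines below begin at the start codon and are read 5′ to 3′ from the minus strand of chromosome 1 in GRCm38 (128589857 to 128592209, across an intron). Capitals mark the 6 bases at the end of the first coding exon that Cxcr4-201 has and Cxcr4-202 lacks.
Cxcr4-201: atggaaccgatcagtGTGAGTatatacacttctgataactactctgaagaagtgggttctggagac
Cxcr4-202: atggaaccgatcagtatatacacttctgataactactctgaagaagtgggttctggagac

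Cxcr4-201 holds a complete coding region of 359 codons. Cxcr4-202 is annotated as a partial transcript of 902 nt, and no stop codon follows its 818 coding bases.

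Cxcl12 was the highest of the 3 genes by a wide margin, Ackr3 stood between, and Cxcr4 was lowest. This order was the same in both libraries, and the authors' credibility intervals of TPM did not overlap between any of the 3 genes in either library. The ligand Cxcl12 (ENSMUSG00000061353.7; mm10 chromosome 6, 117168535 to 117181367, plus strand) had 99.56 TPM in replicate 1 and 109.86 TPM in replicate 2. Its mean was 104.7 TPM ± 7.28 (SD, n = 2), from 5495 and 6528 estimated counts. By mean TPM it ranked 1244 among the nuclear protein-coding genes, of which 12676 were at 1 TPM or more in each library. The median of those genes was 15.9 TPM.

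The scavenging receptor gene Ackr3 (ENSMUSG00000044337.5; chromosome 1, 90203980 to 90216751, plus strand) had 19.88 TPM in replicate 1 and 21.48 TPM in replicate 2. Its mean of 20.68 TPM ± 1.13 rested on 1549 and 1837 counts and ranked 5410. It therefore lay near the middle of the expressed protein-coding genes. The signalling receptor gene Cxcr4 (ENSMUSG00000045382.6; chromosome 1, 128588199 to 128592293, minus strand) had 3.40 TPM in replicate 1 and 3.62 TPM in replicate 2. Its mean of 3.51 TPM ± 0.156 ranked 10846. Cxcr4 rested on 132 counts in replicate 1 (exact Poisson 95% interval 110 to 157) and 176 in replicate 2 (151 to 204). These intervals cover counting error only. In bulk tissue, few cells with much Cxcr4 RNA and many cells with little cannot be told apart.

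**Figure D1:**
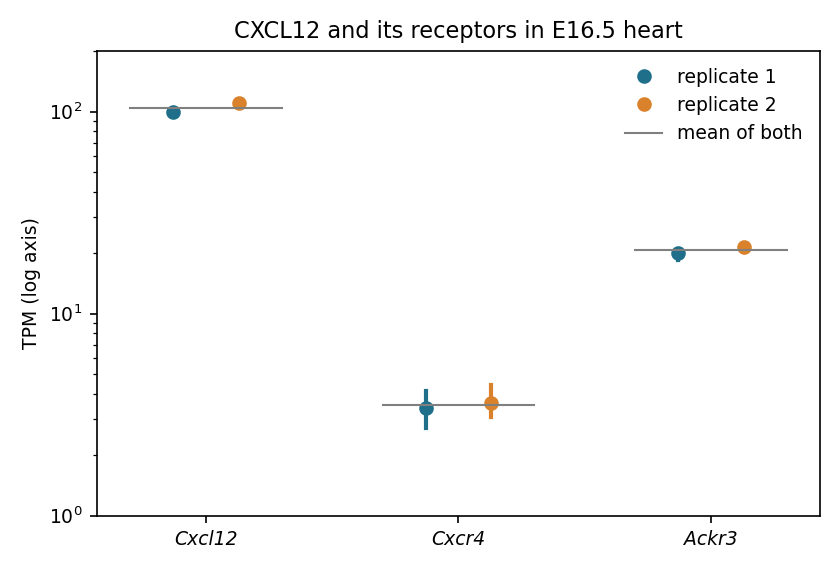
TPM on a log axis for Cxcl12, Cxcr4 and Ackr3. Points are the libraries (replicate 1 left, replicate 2 right), vertical lines the authors’ credibility intervals (hidden by the points where narrow) and grey lines the mean of both. Cxcl12 stands near 100 TPM, Ackr3 near 20 and Cxcr4 near 3.5, with no overlap of intervals between genes.

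On the TPM scale, Cxcl12 exceeded Cxcr4 by 29.3-fold in replicate 1 and 30.3-fold in replicate 2 (mean log2 ratio 4.90 ± 0.0365, SD, n = 2). It exceeded Ackr3 by 5.01-fold and 5.11-fold (2.34 ± 0.0215). Cxcr4 stood 5.85-fold below Ackr3 in replicate 1 and 5.93-fold below it in replicate 2 (log2 ratio of Cxcr4 over Ackr3 -2.56 ± 0.015). The SDs of the ratios with Cxcr4 understate their uncertainty. Its counting intervals, 110 to 157 counts in replicate 1 and 151 to 204 in replicate 2, are wide beside them. Ackr3 held 85.4% and 85.6% of the TPM of both receptor genes together. Every one of these differences between genes was far larger than the spread between the libraries. Without the length correction, the mean log2 ratio of Cxcr4 over Ackr3 was -3.47 in counts, since the quantified Ackr3 transcripts are longer.

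The reads of the 3 genes were not shared with other genes in the quantification. The authors' posterior SD of the count was 0.00 for each gene in both libraries, as it was for 69.6% of protein-coding genes averaging 1 TPM or more. No annotated gene overlaps any of them or lies within 5 kb. The nearest is the lincRNA gene D030044L04Rik, 5.73 kb from Cxcl12.

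The alpha form carried most of the Cxcl12 signal. Cxcl12-202 took 82.1% of the gene's TPM in replicate 1 and 85.1% in replicate 2 (83.6% ± 2.11), at 81.73 and 93.47 TPM. The beta form Cxcl12-203 took 10.3% and 9.01% (9.67% ± 0.926). The retained-intron transcript Cxcl12-204 took 4.64% and 4.03%, and the gamma form Cxcl12-201 took 2.95% and 1.89%. The order of these 4 transcripts was the same in both libraries. Among the coding forms alone, alpha held 86.1% and 88.7%, beta 10.8% and 9.38%, and gamma 3.10% and 1.96% of the TPM.

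The alpha and gamma forms moved in opposite directions between the pools, neither of them past 1.5-fold. The level of the alpha form was lower in replicate 1 than in replicate 2, with credibility intervals of 77.2 to 82.8 and 88.9 to 94.6 TPM. The gamma form was higher in replicate 1, at 2.94 against 2.07 TPM, with intervals of 2.54 to 3.24 and 1.76 to 2.31. The intervals of the beta form overlapped (9.27 to 10.9 and 9.02 to 10.5 TPM), as did those of Cxcl12-204. These intervals do not cover variation between pools, and there is 1 library per pool. How often intervals separate over all transcripts was not computed, so the pattern cannot be called unusual for these libraries.

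The transcripts of Cxcl12 overlap heavily, which bears on how reads were split among them. The alpha form has 1530 of its 1878 nt outside the other coding forms, mostly its own 3′ end. Of those, only 39 also lie outside the retained-intron transcript Cxcl12-204, which has 1016 nt of its own. The beta form has no base of its own, because its last exon lies inside that of the gamma form. The gamma form has 2456 nt of its own out of 5627. Because this form is long, it held 7.89% and 5.20% of the gene's counts, above its share of TPM.

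**Figure D2:**
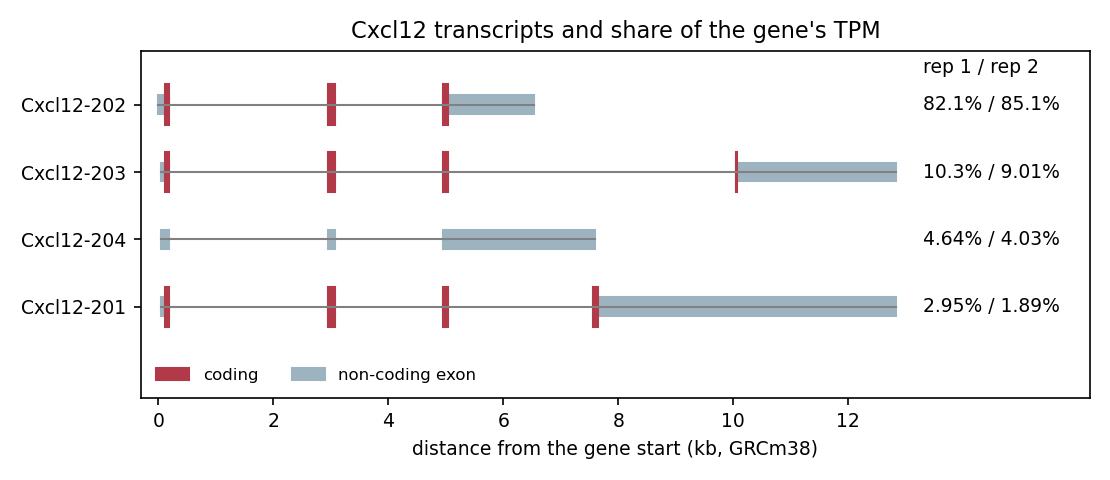
Exons of the 4 Cxcl12 transcripts by distance from the gene start in kb, with coding parts tall and red and non-coding parts in blue-grey. Each transcript's percent of the gene's TPM in replicates 1 and 2 stands at the right. The alpha form Cxcl12-202 ends first and holds 82.1% and 85.1%.

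Ackr3 signal lay almost wholly on its full-length transcript. Ackr3-201, with 362 codons in 2 exons, took 98.2% of the gene's TPM in replicate 1 and 96.9% in replicate 2. The short transcript Ackr3-202, annotated with 404 nt and 13 coding bases at its end, rested on 3 and 6 counts. Of its bases, 283 lie outside Ackr3-201. A count this low is at or near the limit of detection, so the level of Ackr3-202 is not interpreted.

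The split of Cxcr4 differed most between the libraries. Cxcr4-201, the transcript with the 6 extra coding bases, took 72.1% of the gene's TPM in replicate 1 and 92.8% in replicate 2. Cxcr4-202 took 27.9% and 7.22%, from 20.31 and 6.21 estimated counts, each with a posterior SD of 8.29 or 8.84 counts. Its TPM intervals overlapped widely, at 0.201 to 1.87 in replicate 1 and 0.000068 to 1.31 in replicate 2. Only 3 of its 902 nt lie outside Cxcr4-201, so few reads other than those across its exon junction are its own. A difference in Cxcr4 splicing between the pools was therefore not detectable at this depth.

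**Figure D3:**
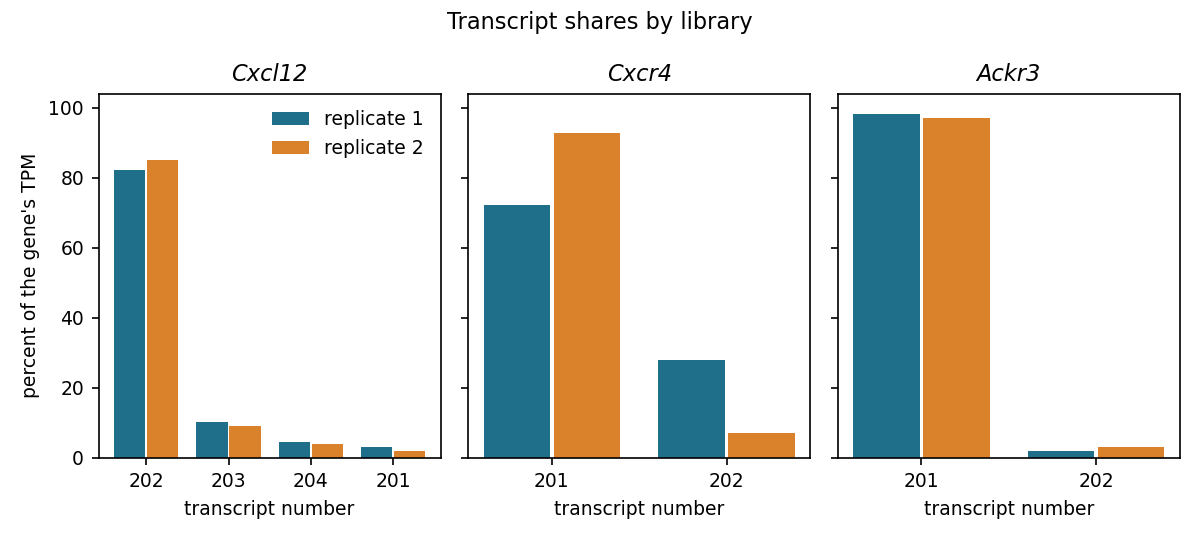
Percent of each gene's TPM on each of its transcripts, with replicate 1 left of replicate 2. Cxcl12-202 and Ackr3-201 hold over 80% of their gene in both libraries, while Cxcr4-201 holds 72.1% in replicate 1 and 92.8% in replicate 2.

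Between the pools, all 3 genes had slightly lower TPM in replicate 1. The credibility intervals were separate for Cxcl12 (94.8 to 100.1 in replicate 1 and 105.1 to 110.6 in replicate 2) and overlapped for Ackr3 and Cxcr4. Cxcl12 also had the most counts of the 3 genes, and these intervals do not cover variation between pools. The share of all genes with separate intervals was not computed. The log2 ratios of TPM + 0.1, replicate 1 over replicate 2, were -0.14 for Cxcl12, -0.11 for Ackr3 and -0.09 for Cxcr4. None of the 3 genes was past 1.5-fold, and 12.5% of the 14830 annotated genes averaging 1 TPM or more were past it in either direction. The median absolute log2 ratio over those genes was 0.158, above the size of each of these 3 ratios on the TPM scale. For Cxcr4 the ratio was -0.29 from TMM-scaled counts and -0.31 with DESeq2 size factors. Both are larger in size than that median, which was computed from TPM + 0.1 and not on these 2 scales. Unlike the scaled counts, TPM divides by an effective length that follows the split between transcripts.

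Thymocyte markers and some leukocyte markers differed more between the pools. The thymocyte markers with a mean of at least 1 TPM were past 1.5-fold in 9 of 9 cases. All were lower in replicate 1, at a median log2 ratio of -1.37. Over all genes averaging 1 TPM or more, 12.5% were past 1.5-fold in either direction. Developing thymocytes are known to carry Cxcr4. The 8 leukocyte markers summed to 179.3 TPM in replicate 1 and 271.3 in replicate 2. Of these markers, 4 were past 1.5-fold, all lower in replicate 1, beside the same 12.5% of all genes. Those 4 were Ptprc (8.22 TPM in replicate 1 and 21.71 in replicate 2), Coro1a (48.4 and 104.1), Cd52 (13.9 and 22.75) and Laptm5 (31.14 and 48.06). The other 4, of which Csf1r and Cd68 mark macrophages, were closer. Fcer1g had 28.76 and 28.85 TPM, Tyrobp 28.98 and 25.67, Csf1r 11.45 and 10.33, and Cd68 8.43 and 9.83. Cxcr4 had a log2 ratio of -0.09 from TPM and of -0.29 and -0.31 from scaled counts, the same direction as the thymocyte markers. This direction was not particular to Cxcr4, since Cxcl12 (-0.14) and Ackr3 (-0.11) shared it on the TPM scale. They shared it from scaled counts too, at smaller size than Cxcr4. Cxcl12 had -0.128 with TMM and -0.14 with DESeq2 size factors, and Ackr3 -0.125 and -0.138. How much of the Cxcr4 signal came from thymocytes or leukocytes was not tested.

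Among markers of the resident non-muscle cells, the median log2 ratio was 0.33 for fibroblasts, 0.20 for pericytes and smooth muscle, 0.15 for endothelium, 0.11 for arterial endothelium and -0.04 for epicardium and mesothelium. By their medians, the first 4 lists were thus higher in replicate 1, opposite to the 3 genes, but some members went the other way. Higher in replicate 2 were 2 of 7 fibroblast, 1 of 8 pericyte and smooth muscle, 1 of 8 endothelial and 2 of 7 arterial markers. The endothelial and arterial medians were below 0.158, the median absolute log2 ratio of all genes averaging 1 TPM or more. The 8 endothelial markers summed to 382.7 TPM in replicate 1 and 347.9 in replicate 2, and the 7 arterial endothelial markers to 163.1 and 159.7 TPM. The 8 pericyte and smooth muscle markers summed to 225.8 and 193.6 TPM. The 7 epicardial and mesothelial markers summed to 131.3 and 135.6 TPM, and the 7 fibroblast markers to 1787 and 1617 TPM. Of these 5 lists, a single gene, the fibroblast receptor Pdgfra, was past 1.5-fold (13.09 and 8.26 TPM), beside 12.5% of all genes. Endothelium, epicardium, mural cells and fibroblasts are all known sites of CXCL12 or receptor expression, and bulk RNA does not assign the signal among them.

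**Figure D4:**
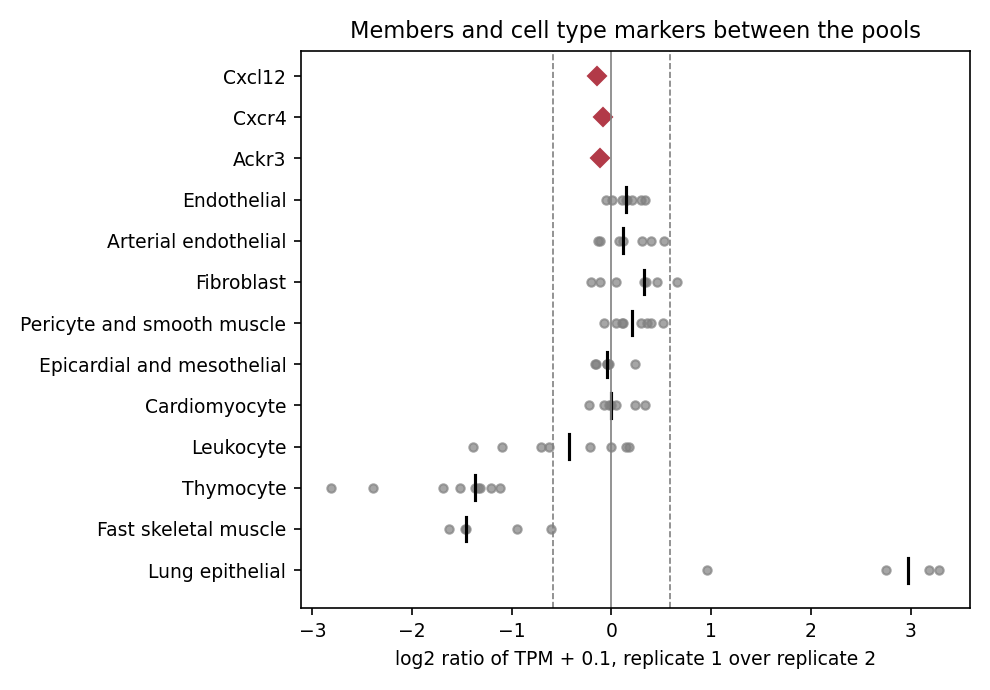
Log2 ratio of TPM + 0.1, replicate 1 over replicate 2, for the 3 genes (red diamonds) and for marker genes averaging 1 TPM or more (grey points, black bar at the list's median). Dashed lines mark 1.5-fold. The 3 genes lie between -0.14 and -0.09, while the thymocyte median is -1.37 and the lung epithelial median 2.97.

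Among chemokine ligands, Cxcl12 was the most abundant. It held 32.7% of the summed TPM of 37 ligand genes in replicate 1 and 31.4% in replicate 2. Next came Ccl21a (45.05 TPM ± 6.20), a CCR7 ligand made by lymphatic endothelium and thymus, which Cxcl12 exceeded by 2.32-fold with intervals apart in both libraries. Ccl25, the thymic ligand of CCR9, had 29.47 TPM in replicate 1 and 59.43 in replicate 2. Ccl27a averaged 33.06 TPM ± 1.19 and the platelet chemokine Pf4 27.27 TPM ± 0.205. Ccl21a had 49.44 and 40.67 TPM, so its order with Ccl25 turned round between the libraries, and Ccl25 and Ccl27a were not apart in both. Ccl21a and Ccl27a have near-identical copies in the mouse genome, and their values are uncertain to that extent.

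Most other ligands were low. Of the CXC, CX3C and XC ligands, 8 of 17 reached 1 TPM in both libraries (median 1.11 TPM), and of the CC ligands 11 of 20 did (median 1.58). Over all nuclear protein-coding genes the share was 59.1% and the median 3.67 TPM. After Cxcl12 and Pf4, the CXC list was led by the interferon-induced Cxcl10 (9.05 TPM ± 5.83), the transmembrane chemokine Cxcl16 (8.56 ± 0.106) and Cxcl13 (7.34 ± 3.71). Cxcl10 had 4.93 TPM in replicate 1 and 13.17 in replicate 2. After the leading CC genes came the monocyte attractant Ccl2 (8.68 ± 1.53) and Ccl6 (5.43 ± 1.55). Cxcl11, the other chemokine ligand of ACKR3, was near the floor, with 6 and 11 counts.

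Among chemokine receptors, Ackr3 led and Cxcr4 stood sixth of 23. Ackr3 held 40.7% of the summed receptor TPM in replicate 1 and 34.6% in replicate 2, and Cxcr4 held 6.96% and 5.82%. Ackr3 exceeded the next receptor, Ackr4, a scavenger of CCL19, CCL21 and CCL25 (5.98 TPM ± 1.05), by 3.46-fold with intervals apart in both libraries. The fractalkine receptor of macrophages, Cx3cr1 (5.04 ± 0.255), followed. The intervals of Cxcr4 overlapped those of its neighbour above, Ccrl2 (3.73 ± 0.46), in both libraries. Ccr9, a thymocyte receptor, had 1.71 TPM in replicate 1 and 6.63 in replicate 2, so its place above Cxcr4 held only in replicate 2. Ccr8, next below Cxcr4, had 1.03 TPM in replicate 1, where its interval lay below that of Cxcr4, and 3.51 in replicate 2, where the intervals overlapped.

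Of the 18 conventional receptors, 6 reached 1 TPM in both libraries (median 0.557 TPM), and of the 5 atypical ones 4 did (median 3.73). Of all nuclear protein-coding genes, 59.1% did. Besides those named, the monocyte receptor Ccr2 averaged 2.01 TPM ± 0.368, and Ackr2, a scavenger of inflammatory CC chemokines, 1.78 ± 0.099. The erythroid and venous receptor Ackr1 averaged 0.59 ± 0.113. Cxcr1 had 0 counts in both libraries, which allows up to 3 counts in each.

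**Figure D5:**
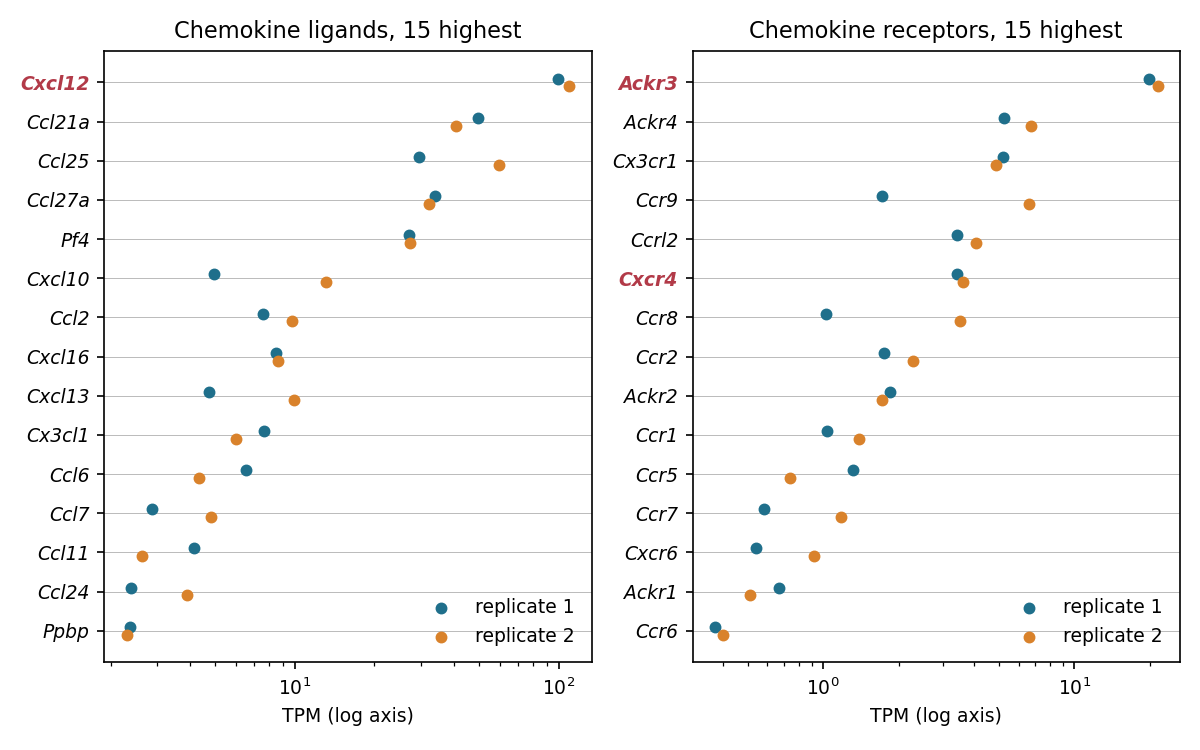
TPM on a log axis of the 15 highest chemokine ligands (left) and receptors (right), with replicate 1 and replicate 2 as separate points and the names Cxcl12, Ackr3 and Cxcr4 in red. Cxcl12 and Ackr3 lead their families in both libraries, and Cxcr4 lies at 3.40 and 3.62 TPM.

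Other partners of these receptors ranged from abundant to near the floor. Of 6 further ligands and cofactors, 5 reached 1 TPM in both libraries, all but Cxcl11 (0.18 TPM). The share over all nuclear protein-coding genes was 59.1%. The cytokine Mif, which binds CXCR4 and CD74, averaged 1605 TPM ± 203, and Hmgb1, which forms a complex with CXCL12, 559.6 ± 58.5. Cd74, the MHC class II invariant chain, had 86.8 TPM in replicate 1 and 181 in replicate 2. Of the 5 members of this list averaging 1 TPM or more, it alone was past 1.5-fold, beside 12.5% of all genes. Adm, the adrenomedullin gene, whose product ACKR3 is reported to take up in the mouse, averaged 19.82 ± 1.17, and the enkephalin precursor Penk 13.86 ± 3.36. Mif and Hmgb1 have processed pseudogenes, and their estimated counts were not whole numbers, so reads were split with other genes. On the TPM scale, Adm lay close to Ackr3.

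All 16 G protein, kinase and arrestin genes reached 1 TPM in both libraries, at a median of 24.3 TPM. Of all nuclear protein-coding genes, 59.1% did, and their median was 3.67 TPM over all measured. They were led by Gng5 (956.3 TPM ± 22.8), the inhibitory alpha subunit Gnai2 (356.9 ± 10.7), the beta subunits Gnb1 (265.8 ± 20.6) and Gnb2 (230.0 ± 14.6), and Gnai3 (66.17 ± 2.57). Of the 20 genes of signalling downstream of CXCR4, 19 reached 1 TPM in both (median 23.1). Among the highest were the small GTPases Cdc42 (411.9 ± 4.32), Rhoa (330.7 ± 29.95) and Rac1 (203.2 ± 5.33) and the adaptor Crk (81.54 ± 2.29). These genes serve many receptors. The estimated counts of Gng5 and Rhoa were not whole numbers, so reads were split with other genes. In the first list, 1 of 16 genes was past 1.5-fold, the receptor kinase gene Grk6 (15.26 TPM in replicate 1 and 8.38 in replicate 2). Of the 19 genes of this list averaging 1 TPM or more, 1 was past 1.5-fold higher and 3 lower in replicate 1, beside 12.5% of all genes in either direction. Among the lower ones was the blood-cell GTPase gene Rac2 (12.69 TPM in replicate 1 and 28.23 in replicate 2).

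Of 16 genes for proteases that trim CXCL12 and for matrix that binds it, 13 reached 1 TPM in both libraries (median 16.4 TPM). Of all nuclear protein-coding genes, 59.1% did. The gelatinase gene Mmp2 (75.46 TPM ± 7.85) and the membrane protease Mmp14 (74.94 ± 7.09) were highest. The heparan sulfate proteoglycans Gpc1 (56.43 ± 3.28), Sdc4 (44.58 ± 9.15) and perlecan, Hspg2 (43.96 ± 0.891), followed. Of the 13 genes averaging 1 TPM or more, 1 was past 1.5-fold, the carboxypeptidase gene Cpm (6.85 TPM in replicate 1 and 2.94 in replicate 2). The share past it over all genes averaging 1 TPM or more was 12.5%. Each of the 5 highest genes lay above Ackr3 and below Cxcl12 in both libraries.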

How the data were processed

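Per the notes deposited with the tables, the authors quantified reads of each library on mm10 with annotation M4, without pooling replicates; the sources used here name no aligner or quantification tool and do not say whether strand was used. Per the labels, 10 ng of RNA longer than 200 nt and ERCC spike-ins went into each library. The deposited tables hold estimated counts, TPM computed by the authors over all rows with spike-ins, credibility intervals of unstated level, and the percent of a gene's TPM on each transcript. Spike-ins held 1.62% and 3.41% of counts.

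Names and coordinates came from GENCODE M21 (GRCm38), matched by identifier without version for 42462 of 43346 gene rows. The 8 transcripts had the same length in M21 and in the tables. Sequences were read from the M21 transcripts. Genes were called different between libraries past 1.5-fold in TPM + 0.1 at a mean of at least 1 TPM. The call was tested on simulated data with changes well past 1.5-fold, in genes of high count and with counting noise only. That test does not cover changes near 1.5-fold, counts as low as those of Cxcr4, or variation between pools. Scaling alternatives used edgeR 4.0.16 (TMM) and DESeq2 1.42.0 (size factors) on the estimated counts after rounding, with 0.5 added for ratios. Python 3.11.15 did the rest.

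The genes, the 8 pathway lists and the 10 marker lists were chosen with earlier results of these data known. Named genes are the 3 genes, up to 5 highest members per pathway list, their 3 nearest genes by level, and any gene named beyond these was chosen after its values were seen. Alternatives were posterior means, other scalings, pseudocounts and filters, and leaving out each library. An item that the naming rule selects is not reported here.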

Additional observations from a re-analysis of the deposited data

How the results depend on the processing

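Of 61 alternative values other than those leaving out a library, 48 stayed within the spread or count limit, 13 moved and 0 reversed. TPM rescaled over annotated mouse genes, without spike-ins and unmatched rows, gave 3.70 TPM for Cxcr4 and 21.8 for Ackr3. With posterior means, the log2 ratio of Cxcl12 over Cxcr4 was 4.84 and that of Cxcr4 over Ackr3 -2.51. With counts not corrected for length, the log2 ratios were 5.30 for Cxcl12 over Cxcr4, 1.83 for Cxcl12 over Ackr3 and -3.47 for Cxcr4 over Ackr3. By share of counts, Cxcl12-202 held 73.1% and Ackr3-201 99.7% of their gene, since counts weigh long transcripts more. Leaving out each library gave 99.56 to 109.86 TPM for Cxcl12, 3.40 to 3.62 for Cxcr4 and 19.88 to 21.48 for Ackr3. With 2 libraries these are the single values, always within the SD, so they say nothing of stability. Cxcr4-202 ran from 7.22% to 27.9% of its gene. No paired analysis was possible because there is a single group. Low counts limit Cxcr4, its transcripts and Ackr3-202.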

Other observations

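The protein-coding genes nearest in level to each gene were found by the Euclidean distance of log2(TPM + 0.1) over the 2 libraries, which reflects level more than pattern at this number of libraries. For Cxcl12 they were the muscle methyltransferase gene Smyd1 (98.75 TPM in replicate 1 and 108.5 in replicate 2), the iron-sulfur scaffold gene Iscu (98.25 and 108.2) and the flotillin gene Flot1 (100.5 and 107.3). For Cxcr4 they were Otulinl (3.41 and 3.65), the connexin gene Gjd3 (3.45 and 3.61) and Ccdc57 (3.35 and 3.58). For Ackr3 they were 1700047I17Rik2 (19.86 and 21.45), Dtl (19.95 and 21.35) and the mitochondrial ribosomal gene Mrpl35 (20.02 and 21.48).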
